A study of Mus musculus with 38 samples.

Results

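The genes described here are 45 genes of the Nrf2 response, of glutathione synthesis and transfer, and of conjugation and antioxidant defence, among 20018 genes with a symbol on the array. They were chosen by name for their known roles, with earlier results of these data known. Each was followed through the brightest of its probes, as the log2 ratio of tissue RNA (Cy5) over a common reference RNA pooled from mouse cell lines (Cy3). Male MutaMouse provided both tissues, lung and forestomach. MutaMouse is a transgenic strain with a bacterial reporter for mutation assays, and the animals were about 10 weeks old. Mice were gavaged daily for 28 days with olive oil alone (D0) or with dibenz(a,h)anthracene (DBahA), a polycyclic aromatic hydrocarbon, in olive oil at daily amounts of 6.25 mg/kg-bw (D1), 12.5 mg/kg-bw (D2) or 25 mg/kg-bw (D3), and tissues were collected 72 h after the last dose. The dose groups D0 to D3 held 5, 5, 4 and 5 lungs and 5, 5, 4 and 4 forestomachs. These are bulk tissues, so fewer cells of a type and less RNA per cell cannot be told apart.

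Nrf2, the product of Nfe2l2, is a transcription factor that Keap1 holds in the cytoplasm and marks for degradation. Oxidants and electrophiles modify Keap1, Nrf2 then enters the nucleus, and with a small Maf protein it binds antioxidant response elements near genes for quinone reduction, glutathione synthesis and conjugation. The aryl hydrocarbon receptor, which binds many polycyclic aromatic hydrocarbons, is known to act on part of the same set, such as Nqo1, Ugt1a6 and Aldh3a1, and glutathione transferases join glutathione to reactive hydrocarbon metabolites such as diol epoxides.

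The antioxidant response element is the sequence through which Nrf2 acts, so promoters that hold its core are shown first. RefSeq promoters of assembly GRCm38.p6, from 250 bases before to 50 bases after a transcript start, were matched by symbol for 36 of the 45 genes. Hmox1, Gclc, Gsr, Gsta4, Sod3, Prdx6, Aldh3a1, Ugt1a6b and Abcc1 had no entry. The core TGACNNNGC was searched on both strands. It was found in 11 of the 36 genes (30.6%), namely Nfe2l2, Gclm, Txnrd1, Srxn1, Gsta3, Gstm5, Mgst1, Sod1, Prdx1, G6pdx and Pgd, and in 14.0% of all 27025 genes in the table. The core GCGTG of the site bound by the aryl hydrocarbon receptor, also searched on both strands, was found in 18 of the 36 (50%) and in 35.2% of all genes, and the 2 motifs may overlap. The 150 bases before the start are printed for 6 of the 11 genes, chosen to cover glutathione synthesis (Gclm), the thioredoxin system (Txnrd1, 1 of its 3 listed starts), peroxide removal (Prdx1), glutathione transfer (Gsta3 and Gstm5) and NADPH supply (G6pdx), each 5′ to 3′ along its gene with the core or its reverse complement in capitals. Their positions are Gclm chr3:122245407-122245556 on the plus strand, Txnrd1 chr10:82859056-82859205 on the plus strand, Prdx1 chr4:116685449-116685598 on the plus strand, Gsta3 chr1:21240435-21240584 on the plus strand, Gstm5 chr3:107895704-107895853 on the plus strand, and G6pdx chrX:74428881-74429030 on the minus strand.
Gclm: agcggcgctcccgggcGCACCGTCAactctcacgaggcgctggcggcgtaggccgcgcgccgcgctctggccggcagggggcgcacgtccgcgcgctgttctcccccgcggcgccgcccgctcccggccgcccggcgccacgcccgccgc
Txnrd1: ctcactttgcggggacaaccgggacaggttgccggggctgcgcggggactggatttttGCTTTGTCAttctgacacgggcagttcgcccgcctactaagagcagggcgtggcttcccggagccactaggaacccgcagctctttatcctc
Prdx1: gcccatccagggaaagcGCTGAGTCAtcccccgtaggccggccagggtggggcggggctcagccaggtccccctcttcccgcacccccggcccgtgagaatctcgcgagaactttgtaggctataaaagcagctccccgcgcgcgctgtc
Gsta3: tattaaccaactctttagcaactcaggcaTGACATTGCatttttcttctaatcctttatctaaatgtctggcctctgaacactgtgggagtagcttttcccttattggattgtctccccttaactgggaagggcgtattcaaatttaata
Gstm5: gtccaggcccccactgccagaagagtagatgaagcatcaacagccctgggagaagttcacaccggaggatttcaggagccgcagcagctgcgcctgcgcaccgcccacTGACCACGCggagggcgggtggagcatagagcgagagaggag
G6pdx: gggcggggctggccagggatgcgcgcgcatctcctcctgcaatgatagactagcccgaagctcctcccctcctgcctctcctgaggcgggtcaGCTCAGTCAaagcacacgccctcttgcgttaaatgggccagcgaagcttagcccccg
The core lay 134 bases before the start in Gclm, 92 in Txnrd1, 133 in Prdx1, 121 in Gsta3, 42 in Gstm5 and 57 in G6pdx. A match of these letters is a description of the sequence and no evidence of binding in these tissues. None of these 6 genes passed the test at any dose in either tissue (below), whereas between the tissues Gsta3 was higher in lung, and Gclm, Gstm5 and G6pdx were higher in forestomach.

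The tissue labels were checked against marker genes. The mean log2 ratio of 3 markers of type 2 alveolar cells lay between 5.12 and 6.82 in lung and between -0.09 and 1.20 in forestomach, where mouse 17 (D3) held the 1.20 and the other arrays lay at or below 0.38. That of 6 squamous epithelium markers lay between 3.29 and 4.03 in forestomach and between -0.42 and -0.05 in lung. The 2 club cell markers did not separate the tissues, at 5.67 to 7.37 in lung and 3.35 to 5.87 in forestomach. Heart muscle markers varied in lung, with a mean log2 ratio between 0.02 and 1.36 at D0 and between -0.13 and 2.62 at D3. The range was -0.18 to 1.80 at D1 and -0.12 to 2.95 at D2, where mouse 11 held the 2.95. Forestomach arrays differed widely in markers of glandular stomach, which are set beside the genes further on. Their fat markers also differed, with a mean log2 ratio up to 4.43 at D0, 3.62 at D1 and 4.47 at D2, but between 0.04 and 0.72 at D3. The part of fat in the forestomach values was not tested. Of the 45 genes, 42 were well above background in Cy5 on all 19 arrays of each tissue. The exceptions were Slc7a11 (no lung array and 10 forestomach arrays), Sult1d1 (10 and 13) and Ugt1a6a (8 and 12).

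DBahA changed none of the 45 genes beyond the threshold in lung at any dose. The threshold was an FDR adjusted P of at most 0.05 in limma, adjusted over all 55681 probes, with a fold change of at least 1.5 in either direction. It called 0 of the 45 genes in every dose group and for the mean of the 3 doses, while the share of all probes called was 0.14% for D1, 0.264% for D2, 0.639% for D3 and 0.411% for the mean. At an unadjusted P below 0.05, limma counted 2 of the 45 in the D1 contrast, 8 in D2 and 9 in D3, beside 6.53%, 8.07% and 11.3% of all probes. Leaving out 1 library, the lung of D0 mouse 3, made Sult1d1 a call, lower than D0, for the mean of the doses. Mouse 3 read 0.07 and the other D0 lungs 1.10 to 1.81, beside means of 0.56, 0.72 and 0.77 at D1, D2 and D3. Sult1d1 was well above background on only 10 lung arrays. At D3 the 95% interval of the fold change lay wholly within 1.5-fold in either direction for 39 of the 45. The other 6 were Hmox1, Gclc, Gsta2, Gpx2, Sult1d1 and Ugt1a6b, and among these only the intervals of Hmox1 and Gsta2 reached a 1.5-fold rise. The median log2 fold change of the 45 at D3 was -0.08, with a range from -0.51 to 0.40, beside 0.00 over all probes. This sign depended on the normalization, as the median of the 45 was 0.36, and that of all probes 0.04, when arrays were centred on their median in place of loess. D3 was also compared with D1, which called 0 of the 45 and 0% of all probes, with 2 of the 45, and 4.4% of all probes, at an unadjusted P below 0.05.

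**Figure D1:**
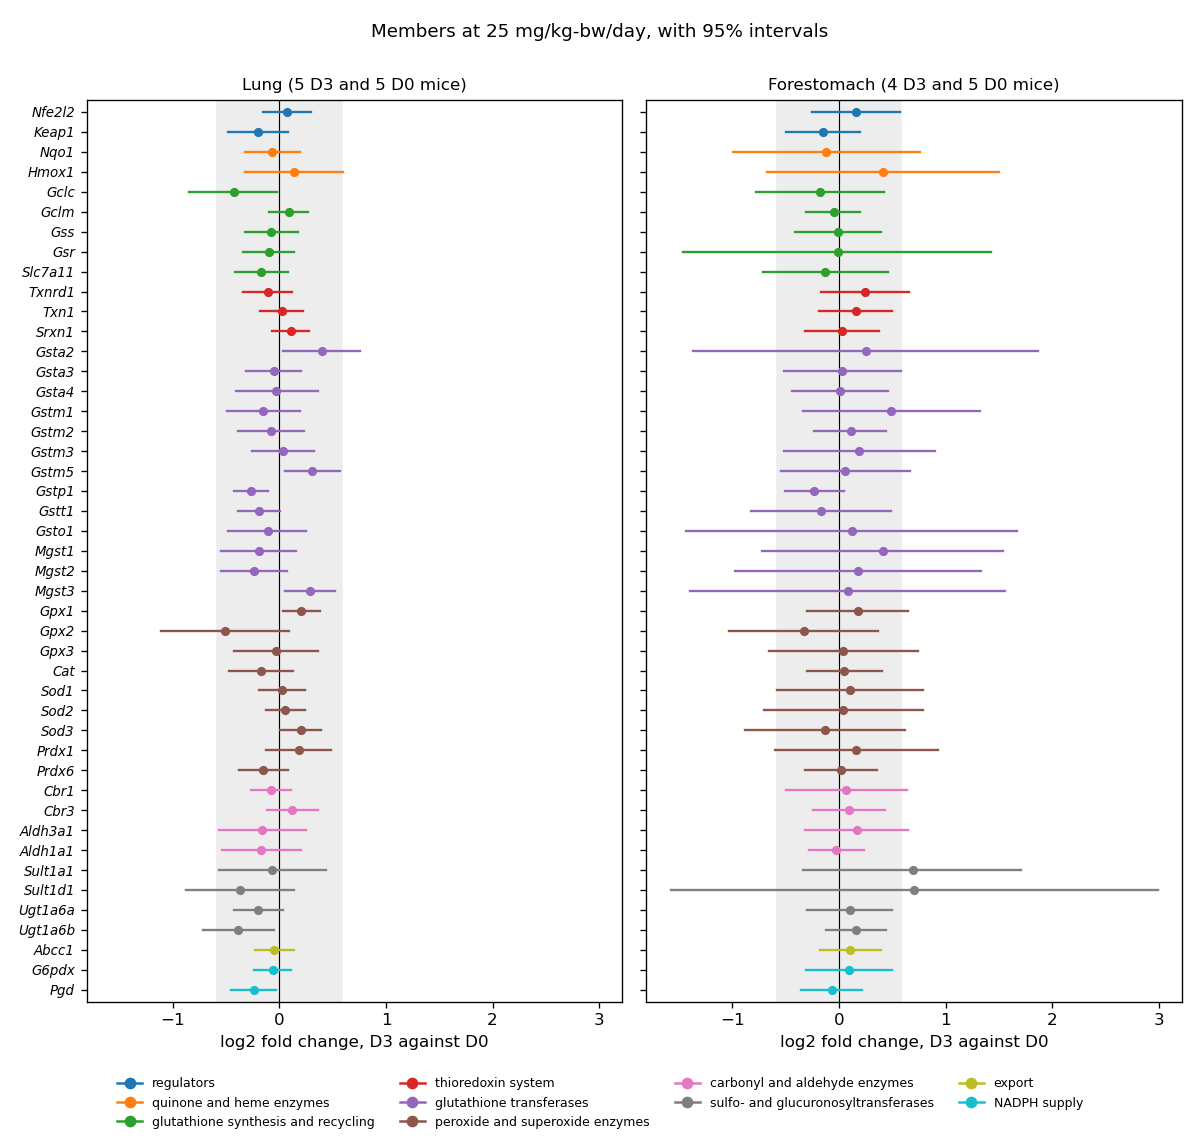
Log2 fold change of the 45 genes at D3 against D0 in lung (left) and forestomach (right), coloured by role. Points are estimates, lines are 95% intervals, and the grey band marks 1.5-fold in either direction. In lung 39 of 45 intervals stay inside the band, in forestomach 19.

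The regulators and the best-known Nrf2 targets did not pass the test at any dose in lung. Nqo1, which reduces quinones to hydroquinones, had log2 ratios of -1.78, -1.57, -1.44, -1.18 and -1.34 in the D0 lungs and of -1.38, -1.46, -1.72, -1.44 and -1.64 in the D3 lungs. The D3 lungs fell within the range of the D0 lungs, and the log2 fold change was -0.07 ± 0.12 (SE; limma, FDR adjusted P = 0.902), with a 95% interval from -0.32 to 0.19. Gclm, the modifier subunit of the ligase that limits glutathione synthesis, read -0.56, -0.74, -0.78, -0.29 and -0.62 at D0 and -0.63, -0.48, -0.32, -0.55 and -0.58 at D3, again with overlap, and its log2 fold change was 0.09 ± 0.09 (FDR adjusted P = 0.802). Nfe2l2 itself ranged from 0.64 to 1.13 at D0 and from 0.91 to 1.01 at D3, a log2 fold change of 0.07 ± 0.11 (FDR adjusted P = 0.867). Keap1, its repressor, ranged from 0.74 to 1.15 at D0 and from 0.56 to 1.02 at D3, with a log2 fold change of -0.20 ± 0.13 (FDR adjusted P = 0.631). Srxn1 (sulfiredoxin, which restores overoxidized peroxiredoxins) and Txnrd1 (thioredoxin reductase) had log2 fold changes of 0.11 and -0.11.

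Hmox1, which opens the heme ring, stood apart in 1 mouse. Its log2 ratios were -1.33, -0.95, -1.55, -1.22 and -0.99 at D0 and 0.07, -1.16, -1.29, -1.61 and -1.35 at D3. Only mouse 16 lay above the D0 range, and the log2 fold change of 0.14 ± 0.22 (limma, FDR adjusted P = 0.88) became -0.15 without it. Gclc, the catalytic subunit of the same ligase as Gclm, read 1.96, 2.01, 1.83, 2.64 and 2.69 at D0 and 1.64, 1.51, 1.79, 1.91 and 2.12 at D3. The groups overlapped, since 3 of the 5 D3 mice were below the lowest D0 mouse and the highest D3 mouse was above 3 D0 mice. The log2 fold change of Gclc was -0.43 ± 0.20 (FDR adjusted P = 0.413).

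The lowest P among the 45 belonged to Gstp1, a cytosolic glutathione transferase active on diol epoxides. Its log2 ratios in the D0 lungs were tightly grouped at -0.56, -0.47, -0.55, -0.52 and -0.55. They were -0.79, -0.91, -0.51, -0.50 and -0.64 at D1, -0.88, -0.82, -0.83 and -0.83 at D2, and -0.92, -0.80, -0.64, -0.80 and -0.84 at D3. All D2 and D3 mice lay below all D0 mice, whereas D1 overlapped with D0. Against D0, Gstp1 differed on the log2 scale by -0.14 ± 0.08 at D1, -0.31 ± 0.08 at D2 (limma, FDR adjusted P = 0.144), -0.27 ± 0.08 at D3 (FDR adjusted P = 0.101) and -0.24 ± 0.06 for the mean of the doses (FDR adjusted P = 0.0738). None passed the threshold, and the size was below 1.5-fold throughout. The second probe of Gstp1 had a log2 fold change of -0.04 at D3, and under median centring the brighter probe had 0.25, so the direction was not settled.

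Another 4 genes had an unadjusted P below 0.05 at D3 with the next lowest values, and none passed after adjustment. Gstm5, a mu class transferase, had a log2 fold change of 0.31 ± 0.12 (limma, FDR adjusted P = 0.307). Mgst3, a microsomal transferase and peroxidase, ranged from -0.12 to 0.48 at D0 and from 0.23 to 0.70 at D3, so the groups overlapped, with a log2 fold change of 0.29 ± 0.11 (FDR adjusted P = 0.316). Pgd, which makes NADPH in the pentose phosphate pathway, ranged from 0.15 to 0.61 at D0 and from 0.00 to 0.18 at D3, with a log2 fold change of -0.24 ± 0.10 (FDR adjusted P = 0.334). Gpx1, the main cytosolic glutathione peroxidase, ranged from 0.86 to 1.07 at D0 and from 0.96 to 1.29 at D3, with a log2 fold change of 0.20 ± 0.09 (FDR adjusted P = 0.347). Sod3, the extracellular superoxide dismutase, was among the 5 lowest P values for the mean of the doses, at 0.20 ± 0.08 (FDR adjusted P = 0.275). Gsta2, an alpha class transferase, had the lowest P between D3 and D1, with a log2 difference of 0.60 ± 0.18 (FDR adjusted P = 0.965).

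By role, the direction of the uncalled values in lung at D3 was mixed. Among the 13 glutathione transferases 4 values were positive and 9 negative, with a median log2 fold change of -0.08, and among the 9 peroxide and superoxide enzymes 5 were positive and 4 negative, with a median of 0.02. On the brightest probes all 4 sulfo- and glucuronosyltransferases had negative values, from -0.39 (Ugt1a6b) to -0.07 (Sult1a1), and 1 of them had an unadjusted P below 0.05. The second probes gave 0.09 for Ugt1a6b, 0.03 for Sult1a1 and -0.11 for Sult1d1, so a shared direction was not settled. Gpx2, the epithelial glutathione peroxidase, had the lowest estimate of all, -0.51 ± 0.29 (limma, FDR adjusted P = 0.543), and its values spread from 3.52 to 5.51 within D0 alone.

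**Figure D2:**
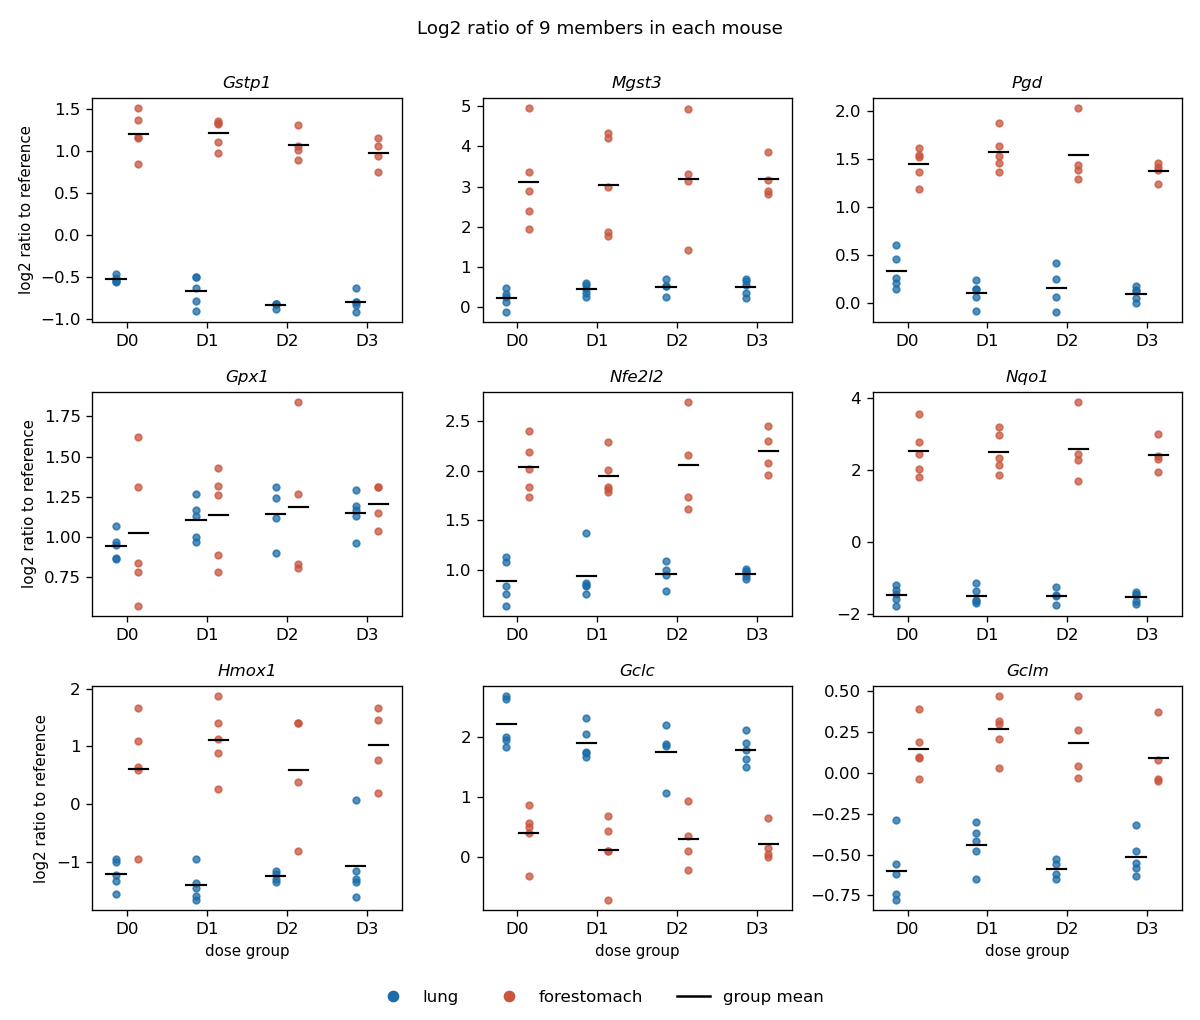
Log2 ratio of 9 genes in each mouse by dose group, in lung and forestomach. Each point is 1 mouse and lines are group means. The lung values of Gstp1 at D2 and D3 lie below those at D0, the lung values of Nqo1 overlap between all dose groups, and 1 D3 lung stands apart for Hmox1 at 0.07.

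Outside the 45 genes, a list of 65 further genes of the same pathways was read in the same way, and 64 were measured. In lung 1 of the 64 was called, and it rose at each dose. Ephx1, microsomal epoxide hydrolase, which turns arene oxides into dihydrodiols, had a log2 fold change of 0.78 ± 0.09 at D1 (limma, FDR adjusted P = 0.000175), 1.02 ± 0.10 at D2 (FDR adjusted P = 6.93e-06) and 1.05 ± 0.09 at D3 (FDR adjusted P = 1.18e-06). The median of the 64 at D3 was 0.01. In forestomach at D3, Ephx1 had a log2 fold change of 0.32 ± 0.21 (FDR adjusted P = 1). Blvra, biliverdin reductase, which acts after Hmox1 in heme breakdown, had an FDR adjusted P of 0.0198 in lung at D3 with a log2 fold change of 0.45, below the fold threshold.

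In forestomach 0 of the 45 genes were called at any dose or for the mean of the doses, as were 0% of all probes, and D3 against D1 also called 0 of the 45 and 0% of all probes. At an unadjusted P below 0.05, limma counted 1 of the 45 at D1 (Cbr3, a carbonyl reductase, 0.38 ± 0.15) and 0 in each other contrast. The shares of all probes at this level were 4.32% at D1, 3.1% at D2, 3.56% at D3, 3.4% for the mean of the doses and 5.35% between D3 and D1. The precision was lower than in lung, with a median SE of 0.27 against 0.12 at D3. Only 19 of the 45 intervals lay within 1.5-fold, and 22 reached a 1.5-fold rise, so a change of that size was not detectable for many of them with these mice. The 5 lowest P values at D3 were those of Gstp1 (-0.23 ± 0.13), Sult1a1 (0.69 ± 0.49), Gstm1 (0.49 ± 0.39), Txnrd1 (0.24 ± 0.20) and Ugt1a6b (0.16 ± 0.13), all with an FDR adjusted P of 1 in limma. Sult1a1, a phenol sulfotransferase, ranged from 0.75 to 3.1 at D0 and from 2.24 to 3.06 at D3, so the D3 mice fell within the D0 range.

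Whether the tissues responded differently was tested as the lung fold change minus the forestomach fold change. It called 0 of the 45 genes at D3 and for the mean of the doses, against 0.172% and 0.192% of all probes, and limma counted 1 of the 45 at an unadjusted P below 0.05 in each, beside 5% and 4.74% of all probes. That gene was Ugt1a6b, a phenol glucuronosyltransferase, with -0.55 ± 0.22 at D3 (FDR adjusted P = 0.822) and -0.40 ± 0.18 for the mean. The second, dimmer probe of Ugt1a6b had log2 fold changes of 0.09 in lung and -0.05 in forestomach at D3, so the direction was not settled. Txnrd1, Gstm1, Sult1a1 and Ugt1a6a followed at D3, with -0.36 ± 0.22, -0.64 ± 0.43, -0.75 ± 0.55 and -0.30 ± 0.22.

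The 2 tissues of vehicle mice differed far more than any dose group did from its control. At D0, 34 of the 45 genes were called between lung and forestomach, 11 higher in lung and 23 higher in forestomach, against 16.2% of all probes. When arrays were centred on their median in place of loess, 17 of the 45 were called, against 8.18% of all probes, and Mgst3 was no longer among them (-2.05, limma FDR adjusted P = 0.0654). Since 42 of the 45 genes but only 30.1% to 63.8% of all probes on an array gave signal well above background, they were also read against probes well above background on all 5 arrays of either group. Of 42 such genes 33 were called, against 36.2% of such probes. The median log2 difference of the 45, lung minus forestomach, was -0.73, beside -0.01 over all probes.

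**Figure D3:**
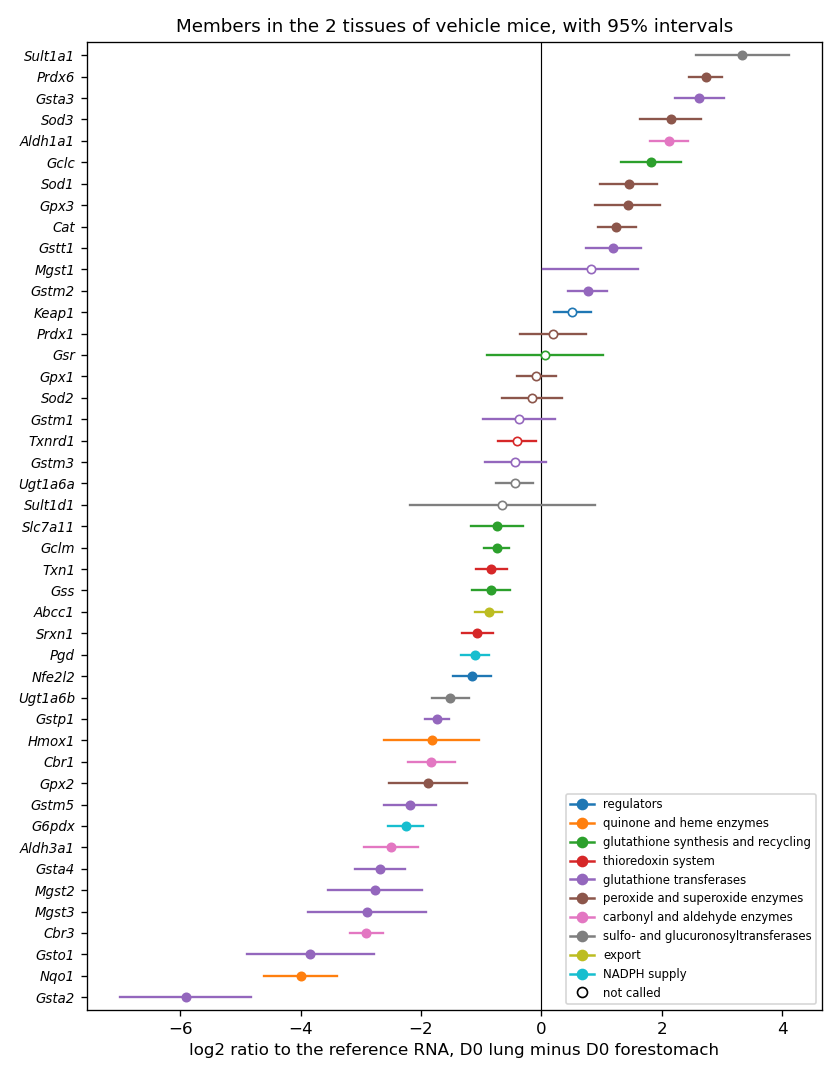
Log2 ratio of the 45 genes at D0, lung minus forestomach, with 95% intervals, coloured by role and sorted. Filled points were called and open points were not. Gsta2, at -5.91, is lowest and Sult1a1, at 3.34, is highest.

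Nqo1, Nfe2l2, Srxn1, Txn1 and Hmox1 were among the genes higher in forestomach. Nqo1 had log2 ratios between -1.78 and -1.18 in lung and of 3.57, 2.04, 2.79, 2.46 and 1.82 in the same 5 mice in forestomach. The tissues did not overlap, and the log2 difference was -4.00 ± 0.29 (SE; limma, FDR adjusted P = 4.89e-13), a 16-fold higher ratio in forestomach. Nfe2l2, the gene of Nrf2, was 2.22-fold higher in forestomach (-1.15 ± 0.15, FDR adjusted P = 2.21e-07). Keap1 was 1.43-fold higher in lung (0.51 ± 0.15, FDR adjusted P = 0.00905) and missed the fold threshold. Of the thioredoxin genes, Txn1 (-0.83) and Srxn1 (-1.07) were called and Txnrd1 (-0.40) was not. Hmox1 was 3.53-fold higher in forestomach (-1.82 ± 0.39, FDR adjusted P = 0.000376), although 1 D0 forestomach, at -0.95, lay within the range of the D0 lungs.

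The 2 subunits of the ligase that limits glutathione synthesis went opposite ways. Gclc ranged from 1.83 to 2.69 in lung and from -0.33 to 0.86 in forestomach, a log2 difference of 1.83 ± 0.25 (limma, FDR adjusted P = 2.98e-07). Gclm ranged from -0.78 to -0.29 in lung and from -0.04 to 0.39 in forestomach, a log2 difference of -0.74 ± 0.10 (FDR adjusted P = 5.30e-07). Neither gene overlapped between the tissues. Gss, which completes glutathione, was higher in forestomach (-0.83), and Gsr, which reduces its disulfide, was not called (0.06 ± 0.47). Slc7a11, the cystine transporter, was well above background on no lung array and on only 2 of the 5 D0 forestomach arrays. Its D0 forestomach log2 ratios were 0.13, 1.57, 0.18, 0.10 and 0.29, so that mouse 2 stood high above the others. Slc7a11 was called, at -0.73 (FDR adjusted P = 0.0064), but without the forestomach of mouse 2 the log2 difference was -0.46 and the call was lost, so it rests on that mouse.

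Glutathione transferases divided by gene, not by class. Of 13, 7 were higher in forestomach and 3 in lung. Gsta2 read -0.17, 0.48, -0.27, 0.44 and 0.79 in the D0 lungs and 7.70, 5.07, 6.93, 6.81 and 4.31 in the forestomachs of the same mice. The log2 difference was -5.91 ± 0.54 (limma, FDR adjusted P = 7.84e-11), and the spread within forestomach was wide. Gsta3, of the same alpha class, went the other way, between 4.56 and 5.18 in lung and between 1.76 and 2.88 in forestomach (2.62 ± 0.20, FDR adjusted P = 9.65e-13). Gsto1 (omega class, -3.84), Mgst3 (-2.89), Mgst2 (-2.76), Gsta4 (-2.68), Gstm5 (-2.18) and Gstp1 (-1.73) were higher in forestomach, while Gstt1 (theta class, 1.19) and Gstm2 (0.77) were higher in lung. Gstm1, Gstm3 and Mgst1 were not called. Alpha class genes are close in sequence and Gsta1, from the further list, had a nearly equal difference of -5.78, so signal shared between the probes of Gsta1 and Gsta2 is possible, as it is for Ugt1a6a and Ugt1a6b. Among the 45 genes, 3 had probes that differed in the call between tissues, namely Gstm2, Gstm3 and Ugt1a6b. The further probes of Gstm2, at 0.20 and 0.51, were not called, so its call rests on the brightest probe. The second probe of Gstm3 was called at -1.11, and that of Ugt1a6b, at -0.41, was not.

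Enzymes against peroxide and superoxide were mostly higher in lung, 5 of 9, with 1 higher in forestomach. Prdx6, a peroxiredoxin that also acts in surfactant lipid turnover, ranged from 3.39 to 4.00 in lung and from 0.52 to 1.24 in forestomach (2.74 ± 0.14, limma FDR adjusted P = 1.22e-17). Sod3 (2.15 ± 0.25), Sod1 (1.45 ± 0.23), Gpx3 (1.44 ± 0.27) and catalase, Cat (1.25 ± 0.16), were also higher in lung. Gpx2 was higher in forestomach (-1.88 ± 0.32), and Gpx1, Sod2 and Prdx1 were not called.

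The remaining roles also held large differences in both directions. Cbr3 and Cbr1, which reduce carbonyls, and Aldh3a1, an aldehyde dehydrogenase known from cornea and stomach, were higher in forestomach, by -2.91 ± 0.14, -1.83 ± 0.19 and -2.50 ± 0.22. Aldh1a1, which makes retinoic acid, was higher in lung (2.12 ± 0.16), as was Sult1a1 (3.34 ± 0.38), whose ratios were 5.49, 5.32, 4.70, 5.03 and 5.75 in lung and 2.09, 3.1, 1.26, 0.75 and 2.38 in forestomach. G6pdx (-2.25 ± 0.14) and Pgd (-1.10 ± 0.12), both NADPH sources, Abcc1, an exporter of glutathione conjugates (-0.87 ± 0.11), and Ugt1a6b (-1.51 ± 0.15) were higher in forestomach. Sult1d1 (-0.65 ± 0.76) and Ugt1a6a (-0.44 ± 0.15) were not called. In the further list of 64 genes, 12 were called higher in lung and 24 higher in forestomach. The share called was 16.2% of all probes and 36.2% of probes well above background on all 5 arrays of either group. Among those called were the carbonyl reductase Cbr2 (3.69 ± 0.26, higher in lung) and the prostaglandin reductase Ptgr1 (-3.88 ± 0.26, higher in forestomach).

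For a few genes the reference channel moved with the tissue, although the same reference RNA was used on all arrays. The normalized log2 Cy3 signal of Gpx3 averaged 8.90 on D0 lung arrays and 6.21 on D0 forestomach arrays, while its Cy5 signal averaged 13.30 and 9.17. Its Cy5 difference of 4.13 was therefore larger than the log2 ratio difference of 1.44. Gpx2 behaved likewise, with a Cy3 difference of -1.71, a Cy5 difference of -3.59 and a ratio difference of -1.88. Sod3 (Cy3 difference 0.74) and Aldh3a1 (-0.63) were the only others above 0.5 in size, and the median size over the 45 genes was 0.08. For these 4 genes the ratio gave a smaller tissue difference than Cy5 did, and the cause was not tested. With Cy5 alone, 33 of the 45 were called between tissues. The share of all probes called in that setting is not given here, so this count has no background beside it.

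Within forestomach, some of the 45 genes went with markers of glandular stomach, the acid-secreting part beside the squamous forestomach. The mean of 9 such markers, relative to D0, lay between -3.66 and -3.09 on 6 arrays (2 of D0, 2 of D1, 1 of D2 and 1 of D3) and between 0.81 and 2.87 on the other 13. None of the 9 markers was below background on all forestomach arrays. Pancreas markers separated the same sets, with a mean log2 ratio between 0.04 and 0.22 on the 6 arrays and between 0.34 and 1.57 on the 13, and the part of either tissue in the gene differences was not tested. Of the 6 pancreas markers, 1 was well above background on all forestomach arrays and 2 were below it on all. The 2 arrays numbered mouse 18 (D3) lay in opposite sets, with scores of -3.09 and 2.49, and whether they came from 1 animal is not given in the labels. Gsta2 read 5.09 and 7.62 on them and Sult1d1 0.63 and 4.21, so the D3 forestomach means, which average both arrays, mix the sets. For 5 of the 45 genes (11.1%) the 2 sets of arrays did not overlap, against 0.771% of all probes, and among probes well above background on all arrays of either set they did not overlap for 5 of 43 of the genes and for 1.96% of probes. The 5 were Gsta2, Gsto1, Mgst2, Mgst3 and Sult1d1, all higher on the 13 arrays. Sult1d1 was well above background on only 13 forestomach arrays. It entered the 43 through the set in which it was higher, so its lack of overlap there adds no support, and its values on the 6 arrays were dim. Gsta2 had a median log2 ratio of 6.93, with a range from 5.70 to 7.79, on the 13 arrays and of 4.94, from 4.30 to 5.12, on the 6. Gsto1 had medians of 3.93 and 2.24, Mgst3 of 3.37 and 1.91, Mgst2 of 2.18 and 1.06, and Sult1d1, a sulfotransferase of catecholamines and phenols, of 3.03 and 0.29. Gsr overlapped between the sets, from -1.11 to -0.79 on the 6 and from -1.05 to 1.91 on the 13, with medians of -0.97 and 0.98. Nqo1 overlapped between the sets, with medians of 2.79 and 1.84, as did Nfe2l2, with medians of 2.08 and 1.92.

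**Figure D4:**
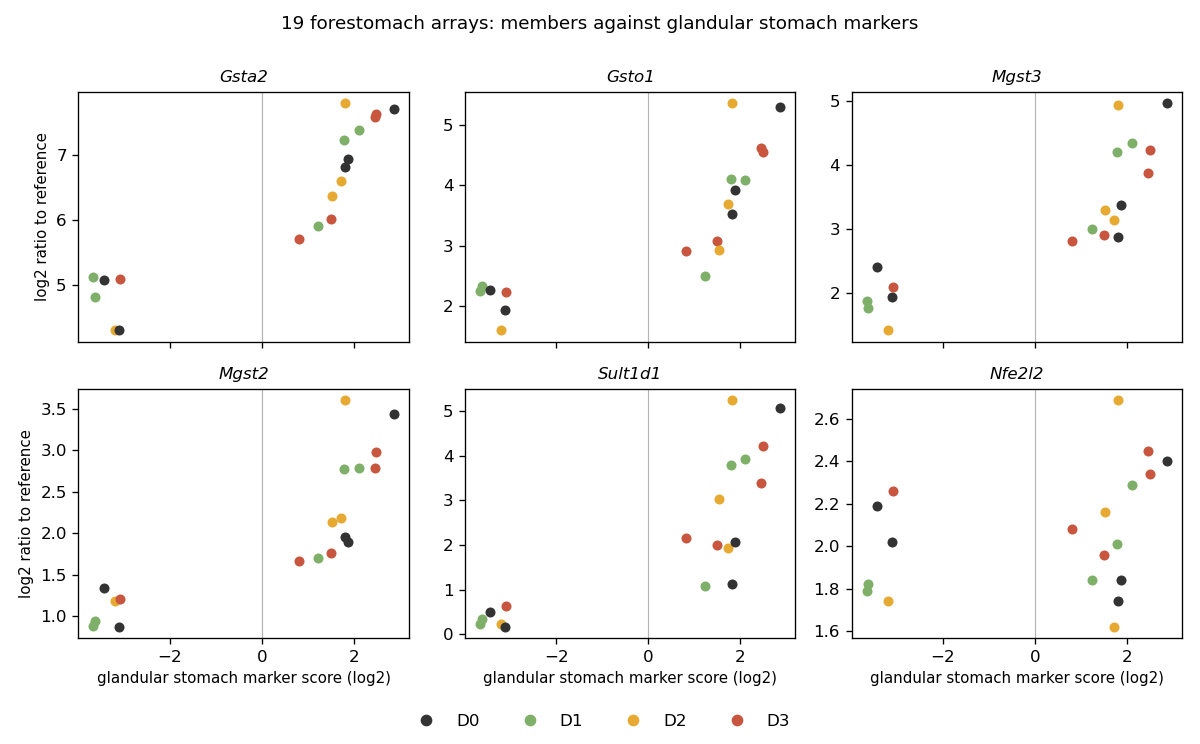
Log2 ratio of 6 genes on 19 forestomach arrays against the glandular stomach marker score, the mean log2 ratio of 9 markers relative to D0, coloured by dose group. Gsta2, Gsto1, Mgst3, Mgst2 and Sult1d1 do not overlap between the 6 arrays with scores below 0 and the other 13, whereas Nfe2l2 does.

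These differences also bear on the tissue comparison. For the 5 genes without overlap, the direction of the shift between the 2 sets was fixed by how they were picked, so only its size is described. With only the forestomach arrays of few glandular markers, which leaves 2 at D0, the log2 difference between lung and forestomach was -4.43 for Gsta2, -2.55 for Gsto1, -1.95 for Mgst3, -1.97 for Mgst2 and -3.39 for Nqo1, and with only the other forestomach arrays it was -6.89, -4.69, -3.52, -3.29 and -4.40. All of these were called. The estimates of Sult1d1 and Gsr had opposite signs in the 2 sets. Sult1d1 averaged 1.14 in D0 lung, and read 0.49 and 0.17 on the D0 forestomach arrays with few markers and 5.08, 2.06 and 1.12 on the others, which gave log2 differences of 0.80 and -1.62, neither of them called (limma, FDR adjusted P = 0.0618 and 0.0964). Gsr averaged 0.32 in D0 lung, and read -0.80 and -0.96 on the arrays with few markers and 1.80, 1.04 and 0.25 on the others. It was called higher in lung with the former (1.20, FDR adjusted P = 1.1e-06) and not called with the latter (-0.71, FDR adjusted P = 0.266). The number of the 45 genes called was 39 with the former, against 18.3% of all probes, and 34 with the latter, against 16.2%. These fits rest on 2 and 3 D0 forestomachs.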

How the data were processed

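The deposited scanner files hold, per the file headers, spot intensity on a linear scale, which the authors made with Agilent Feature Extraction 10.7.3.1 on arrays designed on build mm9. That software also gave each spot a log10 ratio, in the direction Cy5 over Cy3, and flags. A deposited table of log2 ratios by the authors, with a slope of 0.990 to 0.998 against the values used here, served as an alternative, as did the log10 ratio. Following the study's methods, median intensities without background correction were loess-normalized within each of 38 arrays, 19 a tissue, all with tissue RNA in Cy5 and no dye swap. Control spots and outlier spots were left out, spots of a probe were averaged to 55681 probes, and symbols came from RefSeq accessions. The share of probes well above background in Cy5 ran from 30.1% to 63.8% over arrays, no spot was saturated, and the number of arrays limits the precision.

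Each tissue was fitted over all dose groups with limma 3.58.1 in R 4.3.3 and the data.table package, version 1.17.8, and both tissues together for contrasts between them, with Benjamini-Hochberg adjustment over all probes. The fits were checked on simulated data. MAANOVA, named in the methods, was not used. Both forestomach arrays of mouse number 18 (D3), whose labels do not settle if they are 1 animal, were averaged to 1 replicate, and mouse 20 entered with its lung only. The first of these arrays was on slide 4 with the lung of mouse 18, the second on slide 5 with that of mouse 20. All other mice measured in both tissues had them on the same slide. Whether the second array is of mouse 20 was not tested. Genes are named if they belong to the 5 lowest P values of a D3, mean or difference contrast, the 6 largest tissue differences each way, or Nfe2l2, Keap1, Nqo1, Hmox1, Gclc and Gclm, and others were named after their values were seen. The members and lists were chosen with earlier results of these data known. Mouse numbers name the same animal in both tissues, per the labels, so mouse was used as a block in an alternative for contrasts between tissues. Deviations from group means correlated by 0.075 to 0.249 (median 0.186) between the tissues of the 18 mice measured in both. Slides (5) and scan days (3) held several groups each and were tried as blocks. Figures were drawn with Python 3.11.15 and matplotlib 3.10.9.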

Additional observations from a re-analysis of the deposited data

Results flagged for a closer look

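Among 192 groups of 4 or 5 mice, over the genes named by rule, 5 held a value farther from the rest than Dixon's 95% limit, and chance gives about 1 in 20. Hmox1 in the D3 lung of mouse 16 read 0.07, with the nearest other mouse at -1.16. Nfe2l2 in the D1 lung of mouse 7 read 1.37, with the nearest at 0.87. Mouse 11 stood apart within D2 lung for Gstp1, at -0.88 with the nearest at -0.83 in a very narrow group, and for Txnrd1, at -0.80 with the nearest at -1.09. Aldh1a1 in the D0 forestomach of mouse 1 read 4.57, with the nearest at 4.00.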

How the results depend on the processing

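The count of 0 called members in every dose and response contrast held under background correction, other normalizations, the Feature Extraction ratio, the authors' table, a filter on dim probes, slide or scan day as a block, no fold threshold, other uses of mouse 18, the mean of a gene's probes, and, chosen after seeing the data, Cy5 alone. Splitting the forestomach arrays by glandular markers, also chosen after seeing the data, leaves 2 arrays at D0 and 1 each at D2 and D3 in the smaller set, so its count of 0 says nothing of stability. Leaving out 1 mouse kept 0, except that the mean of doses in lung gave 0 to 1 (Sult1d1, lower than D0, without D0 replicate 3). The tissue count of 34 was 34 to 35 with 1 mouse left out, while 8592 to 9256 of all 55681 probes were called. Without D0 forestomach replicate 2, Slc7a11 was lost and Mgst1 was gained (1.17, limma FDR adjusted P = 0.0159). Without D0 forestomach replicate 4, Keap1 was gained (0.60, FDR adjusted P = 0.00364). The count was 17 under median centring, against 8.18% of all probes, where Mgst3 fell to -2.05 (FDR adjusted P = 0.0654). For the mean of doses in lung, the FDR adjusted P of Gstp1 in limma ranged from 0.0457 (filter on dim probes) to 0.62 and that of Mgst3 from 0.0413 (slide block) to 0.532, and neither was called under any of these.

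With mouse as a replicate block, since both tissues came from the same animals, the tissue count was 35 (fixed block) or 34 (random block, consensus correlation 0.13), the response contrasts stayed at 0, and it changed no other call. The share of all probes called with the mouse block is not given here, so these counts have no background beside them. Median centring turned the sign of uncalled values in lung at D3 for Gclc (0.06), Gstp1 (0.25), Keap1 (0.24), Nqo1 (0.29) and Pgd (0.25), for the mean of doses for Gstp1 (0.27) and Pgd (0.26), and in forestomach at D3 for Gstp1 (0.62). It moved the median of the 45 genes in lung at D3 to 0.36 and that of all probes to 0.04. With the 6 arrays of few glandular markers alone, where D3 is 1 array of mouse 18 and D0 is 2, values in forestomach at D3 were turned for Gstm1 (-0.17), Txnrd1 (-0.05) and Ugt1a6b (-0.02), and those of the difference in response for Gstm1 (0.02) and Ugt1a6a (0.25). With 1 mouse left out, Hmox1 in lung at D3 ranged from -0.15 to 0.28 and Nqo1 from -0.15 to 0.00. The causes were not tested. Forestomach, with 4 or 5 mice a group and 1 of 2 levels of glandular markers on each array, limits what its intervals can show, and dim signal limits Slc7a11, Sult1d1 and Ugt1a6a.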
